A study of Saccharomyces cerevisiae BY4741 with 2 samples.

Results

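Small nucleolar and small nuclear RNAs were followed in a budding yeast strain that lacks DBP2, a gene for a DEAD-box RNA helicase, and in a wild-type reference strain. The genes were taken by name, as SNR followed by a number, or LSR1 or NME1. This gave 22 genes among the 2809 distinct names on the 3146 rows of each strain, each of the 22 on 1 row and above 0 in both strains. LSR1 was not among the rows. The R64 annotation holds 81 genes under the same naming rule, and the genes outside the rows were not analysed here. By class, 11 of the 22 are box C/D snoRNAs, 9 are box H/ACA snoRNAs, 1 is the U1 spliceosomal RNA (SNR19) and 1 is the RNA of RNase MRP (NME1).

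RNA came from MATa haploid cells, grown in rich medium with 2% glucose at 30 °C to mid-log phase. Total RNA was depleted of ribosomal RNA 2 times with a hybridisation kit and sequenced with strand kept. The labels give the wild-type strain as his3Δ1, leu2Δ0, met15Δ0 and ura3Δ0, in the BY4741 background. The deletion strain is given as dbp2::KanMx with ura3Δ0, leu2Δ0, his3Δ0 and TRP1, and it also carries a met- marker and a lysine marker (lysΔ). The strains thus share the leu2 and ura3 deletions, but they differ in more than DBP2. The labels speak of 2 replicates per strain. The values analysed here form 1 sample and 1 column for each strain, so none of the differences below has a replicate check and no test was run. The deleted gene stands on 3 rows, and the highest of them read 1539.7 FPKM in wild-type cells and 2.52 FPKM in dbp2Δ cells. FPKM are fragments per kilobase of transcript, scaled to the size of the library, and so give a level per length and not an amount per cell. No read counts were given, so the depth behind each value is unknown.

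Box C/D snoRNAs are short guide RNAs. They carry the conserved box C and box D, and a stretch next to box D (or its internal copy, box D′) pairs with ribosomal RNA, where the methylase of the particle then modifies the ribose of 1 nucleotide. Box H/ACA snoRNAs fold into hairpins that end in the box ACA, and they guide the conversion of uridines to pseudouridines. A few members, the U3 snoRNA among them, are needed for cleavage of the ribosomal RNA precursor rather than for a modification. U1 recognises the 5′ splice site of introns, and RNase MRP cleaves the ribosomal RNA precursor. Most yeast snoRNAs are transcribed by RNA polymerase II and trimmed by nucleases.

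The sequences of the box C/D genes whose values differed most, or whose levels were highest, are shown first. Marked in each is the stretch that faces the annotated target in ribosomal RNA, as found by a search from that target. They are read from the RefSeq R64 genome on the gene's own strand, 5′ to 3′, with T for U. Capitals mark the longest uninterrupted stretch of Watson-Crick complement to the annotated target that includes the modified nucleotide.
SNR71: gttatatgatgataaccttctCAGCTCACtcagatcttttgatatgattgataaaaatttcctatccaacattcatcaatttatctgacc
SNR69: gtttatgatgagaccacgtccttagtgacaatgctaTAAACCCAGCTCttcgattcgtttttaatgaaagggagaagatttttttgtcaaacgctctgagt
SNR87: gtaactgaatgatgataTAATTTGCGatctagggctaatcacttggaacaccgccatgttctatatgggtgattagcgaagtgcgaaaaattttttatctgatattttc
SNR66: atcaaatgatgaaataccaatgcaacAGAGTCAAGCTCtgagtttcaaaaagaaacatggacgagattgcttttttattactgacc
SNR58: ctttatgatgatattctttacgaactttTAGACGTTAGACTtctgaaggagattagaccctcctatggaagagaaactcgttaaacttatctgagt
SNR71 lies on chrVIII:411228-411317 (plus strand), SNR69 on chrXI:364776-364876 (plus), SNR87 on chrXI:431030-431138 (minus), SNR66 on chrXIV:586090-586175 (plus) and SNR58 on chrXV:136088-136183 (minus). Each is annotated as a snoRNA gene of its own, outside protein-coding genes.

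All 11 annotated sites of the 10 box C/D genes with an annotated target had such a complement, of 7 to 13 bases. The search started from the annotated nucleotide, so these complements do not test the annotation. At 6 of the 11 sites the letters CTGA (box D) began exactly 5 bases downstream of the snoRNA base that faces the modified nucleotide, which is the spacing known for these guides. At the other 5 sites, those of SNR68, SNR69, SNR71, SNR87 and SNR190, other letters stood there. The letters TGATGA (box C) were found within the first 25 bases of 9 of the 11 box C/D genes (not SNR17B and SNR40) and CTGA within the last 15 bases of all 11. On the sense strand of the first 100 bases of 5979 protein-coding genes, used for comparison, the same windows held TGATGA in 1.19%, CTGA in 4.52% and both in 0.0335%. None of the 9 box H/ACA genes held either in these windows. Of these 9 genes, 6 had ACA within their last 6 bases, against 7.93% of the protein-coding windows, and the annotated ends of SNR3, SNR81 and SNR85 did not.

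SNR71 and SNR69 serve nearly the same place in the large ribosomal RNA. The annotation gives A2946 as the target of SNR71 and C2948 as that of SNR69, counted from the 5′ end of RDN25-1 (chrXII:451786-455181, minus strand). The sites below are the ribosomal RNA stretches that face the capitals above, with the modified nucleotide in capitals.
Site of SNR71: gtgAgctg
Site of SNR69: gagCtgggttta
Site of SNR66: gagctTgactct
Site of SNR58: agtCtaacgtcta
Site of SNR87: cgcAaatta
The stretches that face SNR71 and SNR69 share 6 bases, and theirs was the sole pair of sites that overlapped among the box C/D genes. SNR66 is annotated for U2417, SNR58 for C663 and, in the small-subunit RNA, SNR87 for A436.

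The small RNAs were among the most abundant rows in both strains. In wild type they ran from 1066 FPKM (SNR3) to 583325 FPKM (SNR66), and in the deletion strain from 281 FPKM (SNR49) to 447333 FPKM (SNR66). The median over the 22 was 4888 FPKM in wild-type cells and 4893 FPKM in dbp2Δ cells. The 2211 genes compared had medians of 87.5 FPKM and 87.9 FPKM. In each strain 18 of the 22 ranked within the 100 highest of the genes compared. The 22 genes held 20.7% of all deposited FPKM in wild-type cells and 40.7% in the deletion strain. These shares depend on 1 row of the protease gene MAS2, which reads 3010000 FPKM in wild-type cells and 273378 FPKM in dbp2Δ cells. Without that row they were 49.0% and 48.4%.

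**Figure D1:**
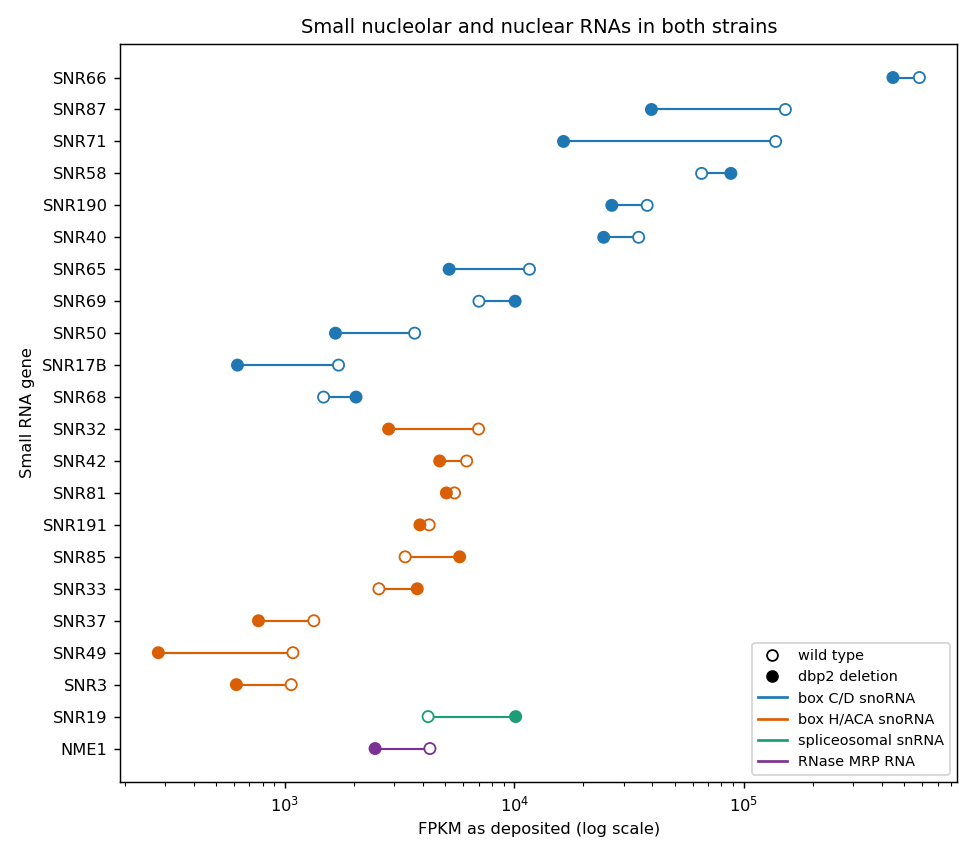
Deposited FPKM of the 22 small RNA genes on a log scale, 1 value per strain, with open circles for wild type and filled circles for the dbp2 deletion. Colours give the class, and genes are ordered by wild-type level within a class. SNR66 is highest in both strains, and the longest line is that of SNR71, from 137788 to 16393 FPKM.

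Box C/D snoRNAs had the highest levels. Their wild-type median was 34849 FPKM, against 3343 FPKM for the 9 box H/ACA snoRNAs, and in the deletion strain the medians were 16393 FPKM and 3776 FPKM. These are medians of levels, and the ratios of the genes themselves are given further below. The classes overlap, since the box C/D genes SNR68, SNR17B and SNR50 lay within the box H/ACA range of 1066 to 6987 FPKM in wild type. SNR66 alone made up 54.1% of the members' sum in wild type and 63.7% in the deletion strain. The order of the next genes differed between strains. In wild type SNR87, SNR71 and SNR58 followed, and in the deletion strain SNR58, SNR87 and SNR190. Across the 22 genes shorter ones tended to have higher levels (Pearson's r = -0.57 and Spearman's rho = -0.52 between log2 length and log2 wild-type FPKM). This is a description across genes that share the same libraries. FPKM divide by length, and the genes run from 86 to 568 bases. How far the length correction of such short RNAs sets these levels was not tested.

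**Figure D2:**
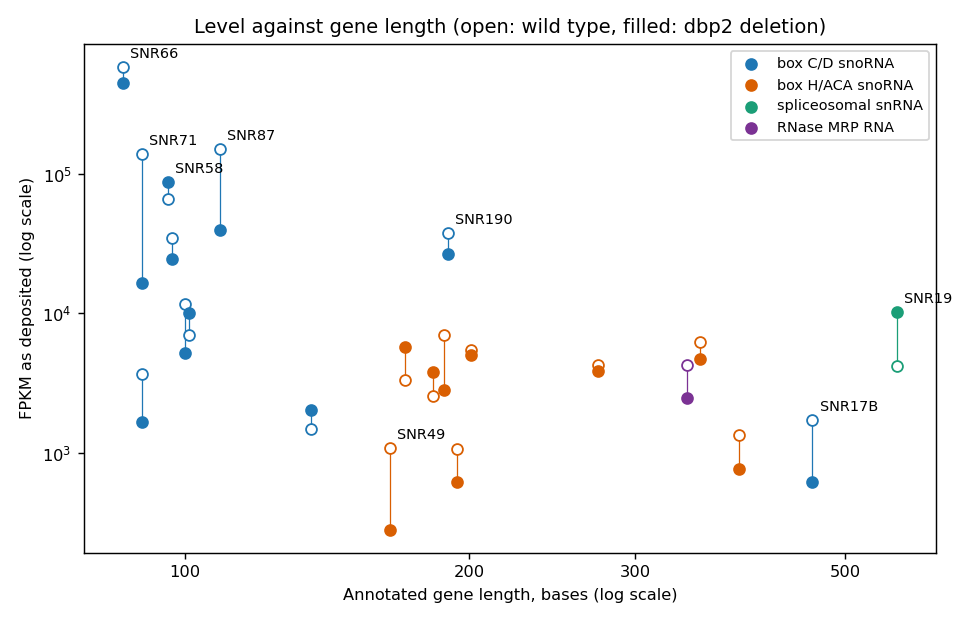
Deposited FPKM against annotated gene length, both on log scales, for the 22 small RNA genes, with open circles for wild type and filled circles for the dbp2 deletion joined by a line. The 4 highest genes in wild type (SNR66, SNR87, SNR71 and SNR58) are all box C/D genes of 86 to 109 bases.

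The comparison asked whether the small RNAs differed in level between the deletion strain and wild type. Of the 22 genes, 7 were lower by 2-fold or more in dbp2Δ cells, 1 was higher by 2-fold or more and 14 lay in between. Here and below a log2 ratio is log2 of (deletion + 1) / (wild type + 1), in FPKM, and the fold is the plain ratio. Among all 2211 genes compared 10.9% were lower and 8.86% higher by this measure, so the members' share of 31.8% lower stands above that background and their 4.55% higher below it. Abundant genes of other kinds were also lower. Of the 216 other genes whose mean was 500 FPKM or more, a background chosen after the values were seen, 26.4% were lower and 4.17% higher by 2-fold or more, shares close to those of the members. The median log2 ratio was -0.51 for the 22 members, -0.57 for those 216 genes and -0.08 for all genes compared. The scaling of the strains to each other moved these counts. When the dbp2Δ values were multiplied so that protein-coding genes summed to the wild-type total, 3 members were lower and 3 higher by 2-fold or more. The shares were then 4.57% lower and 19.9% higher among all genes compared, and 9.26% and 8.33% among the 216 abundant genes. The members' median was then -0.04, and that of all genes 0.38, a shift of 0.46.

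**Figure D3:**
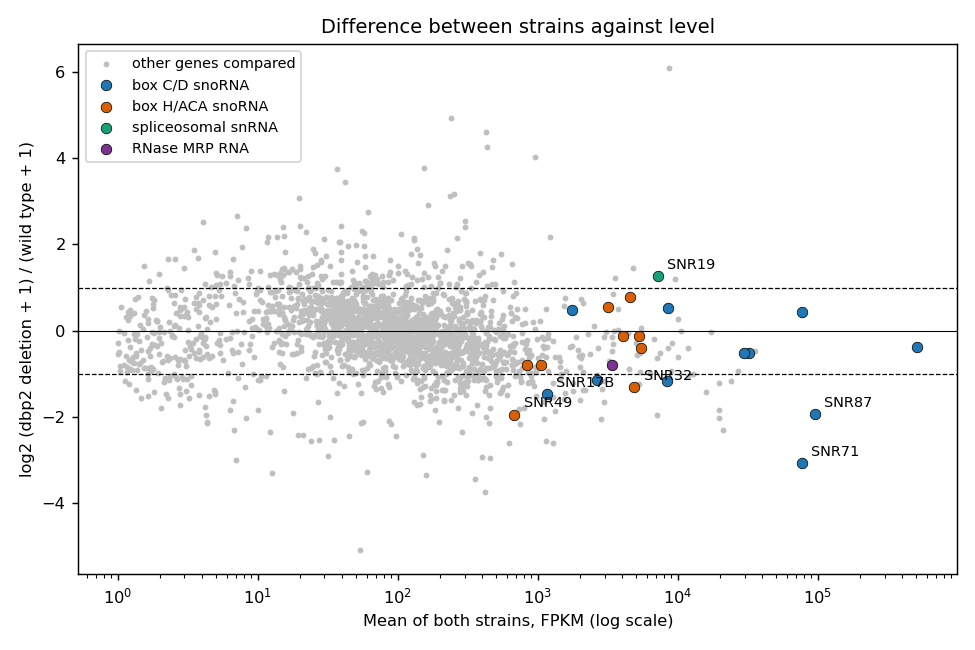
Log2 ratio of the dbp2 deletion to wild type (pseudocount 1) against the mean FPKM of both strains on a log scale, for the 2211 genes compared, with the 22 small RNA genes in colour. Dashed lines mark 2-fold. The small RNAs lie at the right, where most other genes are also below 0.

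Of the 11 box C/D snoRNAs, 5 were lower by 2-fold or more as deposited and none higher, with a median log2 ratio of -0.51. Their share of 45.5% lower stood beside 10.9% of all genes compared and 26.4% of the 216 abundant genes. Once protein-coding sums were made equal 2 were lower, none was higher and the median was -0.04, against 4.57% lower among all genes compared and 9.26% among the abundant ones. Among the box C/D guides SNR71 differed most. It was listed at 137788 FPKM in wild-type cells and 16393 FPKM in dbp2Δ cells, 8.41-fold lower (log2 ratio -3.07). SNR87, which guides the methylation of A436 in the small-subunit RNA, was 151952 FPKM and 39614 FPKM, 3.84-fold lower. Among the genes compared SNR87 ranked 2 in wild type and 3 in the deletion strain, and SNR71 ranked 3 and 10. SNR65, the guide for U2347, was 11644 FPKM and 5200 FPKM (2.24-fold lower), and SNR50, the guide for G867, was 3679 FPKM and 1661 FPKM (2.21-fold lower). These last ratios lay just past the 2-fold limit, and once protein-coding sums were made equal they were at 0.62 of wild type for both genes.

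SNR69 went the other way from SNR71, although their target sites overlap. SNR69 was 7014 FPKM in wild-type cells and 10087 FPKM in dbp2Δ cells (1.44-fold higher). The level of SNR71 was 19.6 times that of SNR69 in wild type and 1.63 times in the deletion strain. That comparison within each strain does not depend on how the strains are scaled to each other. It still rests on 1 value per gene and strain. How far the length correction of RNAs of 90 and 101 bases sets the 2 levels was not tested. Other guides with higher values in the deletion strain were SNR58, with 65563 FPKM and 87922 FPKM, and SNR68, the guide for A2640, with 1475 FPKM and 2042 FPKM. None of the 3 reached 2-fold as deposited, while once protein-coding sums were made equal they were between 1.86-fold and 1.99-fold higher.

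The remaining box C/D guides lay within 1.43-fold of wild type. SNR66 was 583325 FPKM and 447333 FPKM. SNR40, which has a target in each ribosomal subunit (U898 and G1271), was 34849 FPKM and 24539 FPKM. SNR190 was 37955 FPKM and 26616 FPKM. It is annotated with a predicted target (G2395) that has not been shown to be active, and its gene lies 69 bases upstream of SNR128, the U14 gene, with which it is known to share a precursor. SNR128 was not among the rows. All 3 were lower as deposited. Once protein-coding sums were made equal SNR66 was at 1.06 of wild type and SNR40 and SNR190 at 0.97.

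U3, the snoRNA needed for the early cleavages of the small-subunit RNA, is represented by SNR17B. It was 1713 FPKM in wild-type cells and 621 FPKM in dbp2Δ cells, 2.76-fold lower, and once protein-coding sums were made equal its log2 ratio was -0.99, just short of 2-fold. The gene lies on chrXVI:281056-281517 (minus strand). U3 genes carry an intron, which the annotation used here does not separate: it gives SNR17B as 1 exon of 462 bases. The first 60 bases are shown because they hold the start of that intron, with the 5′ splice site letters in capitals from base 15.
SNR17B: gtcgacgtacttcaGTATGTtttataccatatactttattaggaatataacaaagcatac
How the length used for this FPKM treats the intron is not given in the sources used here. SNR17A, a near-identical gene for the same RNA, was not among the rows, and reads of the pair can be shared.

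Of the 9 box H/ACA snoRNAs, 2 were lower by 2-fold or more as deposited and none higher by 2-fold or more, with a median log2 ratio of -0.39. Their share of 22.2% lower stood beside 10.9% of all genes compared and 26.4% of the 216 abundant genes. SNR49 was lowest, with 1084 FPKM in wild-type cells and 281 FPKM in dbp2Δ cells (3.86-fold lower). It is annotated for U990 of the large-subunit RNA and for U120, U211 and U302 of the small-subunit RNA. SNR32, the guide for U2191, was 6987 FPKM and 2833 FPKM (2.47-fold lower). SNR85 had the highest ratio of the class, with 3343 FPKM and 5779 FPKM (1.73-fold higher), and its target, U1181 of the small-subunit RNA, is a prediction. The genes at the ends of this range are printed, with the box ACA in capitals where it lies within the last 6 bases.
SNR49: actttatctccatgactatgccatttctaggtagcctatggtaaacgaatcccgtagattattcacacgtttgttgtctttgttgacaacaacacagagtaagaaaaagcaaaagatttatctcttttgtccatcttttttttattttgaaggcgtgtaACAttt
SNR85: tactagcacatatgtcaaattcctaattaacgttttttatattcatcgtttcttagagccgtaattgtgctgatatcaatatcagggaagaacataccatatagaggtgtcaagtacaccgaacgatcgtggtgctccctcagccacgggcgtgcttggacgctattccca
SNR49 lies on chrXIV:716120-716284 (plus strand) and SNR85 on chrXIII:67768-67938 (minus strand). Box ACA of SNR49 is followed by 3 bases, and no capitals are shown in SNR85 because those letters are not at its annotated end.

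SNR33, the guide for U1042, was 2570 FPKM in wild-type cells and 3776 FPKM in dbp2Δ cells (1.47-fold higher). Once protein-coding sums were made equal SNR33 and SNR85 were 2.03-fold and 2.39-fold higher and SNR49 was the sole member of the class lower by 2-fold or more. Under that scaling 19.9% of all genes compared were higher by 2-fold or more and 4.57% lower. Among the 216 abundant genes the shares were 8.33% and 9.26%. SNR37, a guide for U2944 that also has a structural role in early large-subunit assembly, was 1337 FPKM and 767 FPKM. SNR3, with 3 annotated targets in the large-subunit RNA, was 1066 FPKM and 615 FPKM. They were 1.74-fold and 1.73-fold lower. SNR42, the guide for U2975, was 6200 FPKM and 4729 FPKM. SNR81, which is annotated for U1052 and also for the U2 spliceosomal RNA, was 5489 FPKM and 5058 FPKM. SNR42 and SNR81 were lower as deposited and at 1.06 and 1.28 of wild type once protein-coding sums were made equal.

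SNR191 is the member encoded in an intron. It lies on chrXIV:721938-722211 within the intron of NOG2, a GTPase gene of large-subunit assembly, on the same strand. SNR191 was 4256 FPKM in wild-type cells and 3877 FPKM in dbp2Δ cells, at 0.91 of wild type. NOG2 was 1395 FPKM and 1184 FPKM, at 0.85. Host and snoRNA were thus both slightly lower as deposited, and both were higher once protein-coding sums were made equal. The host genes EFB1, TEF4 and RPL7B were in the rows without their snoRNAs. EFB1 was at 0.91 of wild type, and TEF4 and RPL7B were 2.29-fold and 2.21-fold lower, and once protein-coding sums were made equal none of the 4 hosts was lower by 2-fold or more.

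U1 RNA was the sole member higher by 2-fold or more as deposited. SNR19 was 4211 FPKM in wild-type cells and 10140 FPKM in dbp2Δ cells (2.41-fold higher, log2 ratio 1.27), and its rank among the genes compared was 48 and 17. Once protein-coding sums were made equal it was 3.33-fold higher. SNR19 lies on chrXIV:230105-230672 (minus strand) and at 568 bases is the longest of the 22. Its first 60 bases are shown for the letters that pair with 5′ splice sites, in capitals from base 3.
SNR19: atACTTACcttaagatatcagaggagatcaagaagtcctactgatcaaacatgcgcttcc
It was the spliceosomal RNA among the rows, so nothing can be said here of U2, U4, U5 or U6. NME1, on chrXIV:585587-585926 (plus strand), was 4288 FPKM in wild-type cells and 2472 FPKM in dbp2Δ cells (1.73-fold lower). SNR66 starts 163 bases downstream of NME1 on the same strand, and it was 136 times as high as NME1 in wild type and 181 times in the deletion strain.

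Across the 22 genes the 3 lowest ratios (SNR71, SNR49 and SNR87) stayed lower by 2-fold or more under all 4 scalings tried, and SNR19 stayed higher by 2-fold or more. The scalings shift the members' log2 ratios together, so they are not separate checks. The shift was about -0.0075 for equal medians, 0.47 for equal protein-coding sums and 0.56 for equal sums over the genes compared. Of all 2211 genes compared, 91 were lower by 2-fold or more under the largest shift and 193 higher under the smallest. In sign, 10 genes were lower and 6 higher under all 4 scalings, and the remaining 6 (SNR40, SNR42, SNR66, SNR81, SNR190 and SNR191) were lower as deposited and higher under 1 or more of the other scalings. How many of all genes compared kept their sign under all 4 was not counted, so these sign counts have no background. The 8 genes shorter than 110 bases, all box C/D, had 4 lower by 2-fold or more and a median log2 ratio of -0.83. The 14 longer genes had 3 lower, 1 higher and a median of -0.45. Of all genes compared 10.9% were lower and 8.86% higher by 2-fold or more, and of the 216 abundant genes 26.4% and 4.17%. Once protein-coding sums were made equal, the shorter genes had 2 lower and a median of -0.36. The longer ones had 1 lower, 3 higher and a median of 0.02. The shares were then 4.57% lower and 19.9% higher among all genes compared, and 9.26% and 8.33% among the 216 abundant genes. Log2 length and log2 ratio had a Pearson's r of 0.22 and a Spearman's rho of 0.13 over the 22 genes. Between GC content and log2 ratio r was 0.39 and rho 0.42. Of the 15 genes with targets in the large-subunit RNA alone 4 were lower by 2-fold or more, and of the 4 with a target in the small-subunit RNA 2 were, against 10.9% of all genes compared and 26.4% of the 216 abundant genes. The counts after the same rescaling were 1 of 15 and 2 of 4, against 4.57% and 9.26%.

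**Figure D4:**
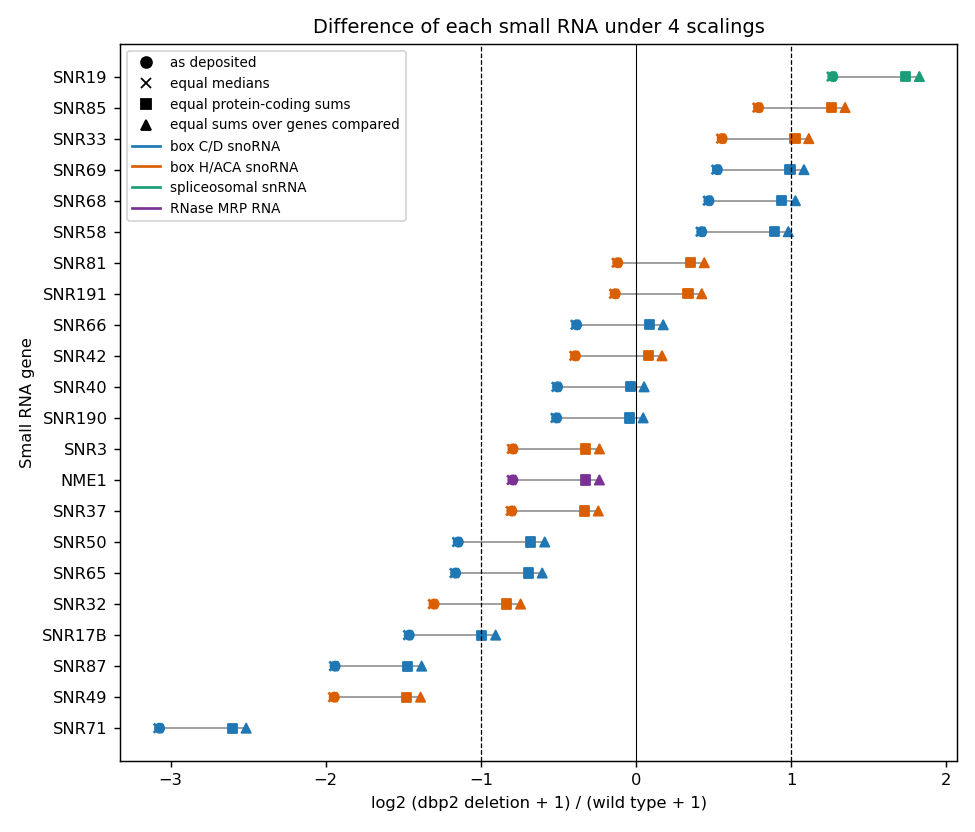
Log2 ratio of the dbp2 deletion to wild type for each of the 22 small RNA genes under 4 scalings of the strains to each other, with dashed lines at 2-fold. SNR71, SNR49 and SNR87 are left of -1 under all 4 and SNR19 is right of 1, while 6 genes cross 0.

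Genes next to the small RNAs were read for their own level. Within 1000 bases downstream on the same strand, 8 members had a protein-coding gene on 1 row as their nearest such neighbour. As deposited 7 of these 8 neighbours were lower in the deletion strain, with a median log2 ratio of -0.80, where 1194 of all 2211 genes compared were lower. By 2-fold or more 1 of the 8 was lower, against 10.9% of all genes. Once protein-coding sums were made equal 5 of the 8 were lower, while 1544 of the 2211 genes were higher. FLX1, a mitochondrial carrier gene 148 bases downstream of SNR68, was 176 FPKM in wild-type cells and 80.8 FPKM in dbp2Δ cells, while SNR68 itself was 1.39-fold higher. SFT1, a Golgi SNARE gene 397 bases downstream of SNR87, was 430 FPKM and 231 FPKM. CAF40, 996 bases downstream of SNR40, was the neighbour with the higher value, at 37.9 FPKM and 47.8 FPKM. In the 300 bases around the annotated starts (250 before, 50 after), ACCCTAA, the core of the site of the snoRNA gene activator Tbf1, stood on either strand at 2 of 22 members (NME1 and SNR65, 9.09%), at 7.41% of the 81 annotated genes of the naming rule and at 2.12% of 6412 nuclear genes. The annotated starts are those of the mature RNAs, and promoters can lie farther upstream.

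Genes for the particles' proteins lay mostly within 2-fold of wild type. Of 88 genes on 8 lists of particle, assembly and processing proteins, 36 were compared and 32 lay within 2-fold. As deposited 4 were higher and 0 lower by 2-fold or more, against 8.86% and 10.9% of all genes compared. After the rescaling to equal protein-coding sums 7 were higher and 0 lower, against 19.9% and 4.57%. Their median log2 ratio was 0.21 as deposited and 0.67 after it. The lists were chosen with earlier results of these data known, and nothing is tested here.

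None of the 4 box C/D core protein genes was in the rows. Of the box H/ACA core, GAR1 was 2777 FPKM in wild-type cells and 1425 FPKM in dbp2Δ cells, and NOP10 was 3940 FPKM and 2826 FPKM. Both were lower, within 1.95-fold. The 6 assembly factors compared lay within 2-fold as deposited, as did 1774 of all 2211 genes compared. Among them NAF1, which loads box H/ACA particles, was 1.76-fold higher and the helicase gene RVB2 was at 0.69 of wild type. Once protein-coding sums were made equal 1 of the 6 was higher by 2-fold or more, against 19.9% of all genes compared. Of U3 proteins IMP3 was 148 FPKM and 316 FPKM (2.14-fold higher) and IMP4 was 1.27-fold higher, while SNR17B was lower.

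Of 11 genes for transcription, termination and processing of snoRNAs 1 was higher by 2-fold or more as deposited and 2 once protein-coding sums were made equal, against 8.86% and 19.9% of all genes compared. NAB3, an RNA-binding subunit of the complex that terminates snoRNA transcription, was 45.5 FPKM and 110 FPKM, and its partner NRD1 was 30.3 FPKM and 48.4 FPKM. MTR4, a helicase of nuclear RNA trimming, and TRF5, a poly(A) polymerase of the same pathway, were at 0.59 and 0.70 of wild type. The exosome nuclease gene RRP6 was 1.24-fold higher. Of 15 Sm and Lsm genes 3 were compared, and of 23 genes for spliceosomal particle proteins 6 were. Their median wild-type levels were 45.7 FPKM and 50.2 FPKM, and the background of all genes was not matched for level. All 9 had higher values, where 1017 of all 2211 genes compared did. By 2-fold or more 2 of the 9 were higher, against 8.86% of all genes. All 9 were also higher once protein-coding sums were made equal, where 1544 of the 2211 genes were. By 2-fold or more, 1 Sm or Lsm gene and 1 spliceosomal gene were then higher, against 19.9% of all genes. LSM8, which binds U6, was 36.2 FPKM and 81.6 FPKM, and LEA1, a U2 protein, was 32.0 FPKM and 68.4 FPKM. The U1 protein NAM8 was 1.28-fold higher, less than U1 RNA itself, and PRP8, the core protein of the spliceosome, was 1.06-fold higher. Of the RNase MRP and RNase P proteins 5 of 6 were higher under both scalings, where 1017 of the 2211 genes were as deposited and 1544 once protein-coding sums were made equal. Among them RPR2 was 1.75-fold higher, while POP5 was at 0.69 of wild type and NME1 was lower.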

How the data were processed

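RNA was measured by strand-specific sequencing in 1 deposited sample per strain. The values were taken as FPKM made by the authors with Cuffdiff 2.1.1 on the build sacCer3, per the submitters' processing notes. The files give no unit, and the values are not whole numbers, with sums too large for CPM or TPM. How replicates were combined and libraries scaled, the aligner, the annotation and the use of strand were not given in the sources used here.

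Rows of the 306 repeated names and 7 rows naming several genes were left out of the comparison. Compared were genes on 1 row, above 0 in both strains and averaging 1 FPKM or more (2211 genes). Their log2 ratio used a pseudocount of 1, which understates the change of low genes, and the limit was 2-fold. Of the names, 2454 matched the RefSeq R64 annotation, the assembly behind sacCer3, from which coordinates (1-based), sequences and target sites came. The class list and protein lists were written from textbook knowledge. Members and lists were chosen with earlier results of these data known. By the rule for names, every small RNA gene, every host gene and up to 4 genes of each protein list by size of the ratio could be named; neighbouring genes, RRP6, PRP8 and MAS2 were named after their values were seen. Alternatives changed the scaling, pseudocount, filter, repeated rows and members. The steps were tested on simulated data. Python 3.11.15 with numpy 2.4.6, pandas 2.3.3, scipy 1.17.1 and matplotlib 3.10.9 was used.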

Additional observations from a re-analysis of the deposited data

How the results depend on the processing

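No paired analysis was possible because each strain has 1 sample and 1 value column, and no replicate could be left out. A median was taken as moved when it differed by 0.1 or more on the log2 scale, and a count when it differed by more than 1.5 times. The scaling mattered most. With equal protein-coding sums the median log2 ratio was -0.040 over all members, -0.043 for box C/D and 0.078 for box H/ACA. The members at least 2-fold higher were then 3 (2 of them box H/ACA) and those at least 2-fold lower 3 (2 box C/D and 1 box H/ACA). The shares of all genes compared were 19.9% higher and 4.57% lower. With equal sums over the genes compared, of which the members themselves are a large part, the medians were 0.049, 0.046 and 0.17. The members at least 2-fold higher were then 5 (2 box C/D, 2 box H/ACA and SNR19) and those lower 3 (2 and 1). Of all 2211 genes compared 522 were higher and 91 lower by 2-fold or more under that scaling. Equal medians, other pseudocounts (0 and 10), other filters, repeated rows and kept zeros moved none of the members' medians or counts. These settings could hardly have moved them, so this is no check of the differences. Every member is on 1 row, above 0 in both strains and at 281 FPKM or more. Equal medians shift log2 ratios by about -0.0075. Without SNR191 the box H/ACA median was -0.59. Of the choices made after seeing the data, leaving out SNR66 gave a box C/D median of -0.83, against -0.51 with it. Leaving out members shorter than 110 bases left 3 of 14 at least 2-fold lower, 1 of them box C/D. With all members it was 7 of 22, 5 of them box C/D. As deposited 10.9% of all genes compared and 26.4% of the 216 abundant genes were lower by 2-fold or more. Without SNR71 none of the members' medians or counts moved. Counting error could not be given, since the depth is unknown.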
